A study of Mus musculus with 12 samples.

Results

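Cytosolic ribosomal protein genes were followed through 12 skin libraries of C3H/HeJ mice. The members were the genes of the deposited table whose symbol starts with Rpl or Rps and a digit, together with Rpsa, Rplp0, Rplp1 and Rplp2, without the Rps6k kinases and named pseudogenes. The rule found 86 of the 23359 genes, and 85 of them reached 1 FPKM in at least 3 libraries. FPKM is the number of sequenced fragments scaled to transcript length and to the size of the library. Rpl10l, a retrogene copy of Rpl10, did not reach it: it was at 0.0422 FPKM in 6-week fibrotic replicate 1 and listed at 0 in the others. Of the 86 genes, 77 encode standard proteins of the cytosolic ribosome: 31 of the small subunit, 43 of the large subunit and the 3 proteins of the stalk, on which the elongation factors dock. A further 8 are paralogues or copies of standard genes, and Rps19bp1 encodes a protein that binds the ribosomal protein Rps19 and is not itself part of the ribosome.

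The study compared 4 groups of 3 libraries: normal skin (N), fibrotic skin at 6 weeks (F_6W), fibrotic skin at 20 weeks (F_20W), and skin at 20 weeks labelled as treated with CD36highCD90+ cells (T_20W), which the study's design text describes as a transplant of fibroblasts into fibrotic skin. All groups are of the inbred strain C3H/HeJ, which carries a defective Tlr4 allele. The labels give no genetic change, age or sex, no time for normal skin, no means by which fibrosis was made and no fibrotic group given other cells or vehicle. Whether libraries of a group stem from different mice is not recorded either. The p-values therefore reflect only how far these samples scatter, and that scatter may be technical.

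Each cytosolic ribosome carries 1 copy of nearly every one of these proteins, so their genes are usually expressed at closely matched levels and are among the most abundant messages of a cell. Their messages are known as TOP mRNAs, because they begin with a C followed by a run of pyrimidines at the extreme 5′ end. Through that run, mTORC1 and the RNA-binding protein LARP1 set how well they are translated, which RNA levels do not show. Some members have further roles: Rpl5 and Rpl11 bind Mdm2 when ribosome assembly fails, and Rplp0, Rpl13a and Rps18 are common reference genes in quantitative PCR.

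The pyrimidine run can be seen at the annotated starts of several members on which the results turn. The windows printed here come from RefSeq on GRCm38.p6, the assembly also called mm10, and run from 20 bases before the annotated start to 30 bases from it. The base at position 21 of each window is therefore the annotated first base of exon 1, and the bases from there on are transcribed. Capitals mark the longest run of C and T that begins with C within those 30 transcribed bases, where it had at least 5 bases. The first 3 windows are of the S6 kinase substrate and of 2 reference genes, and the others are of genes that differed between groups.
Rps6: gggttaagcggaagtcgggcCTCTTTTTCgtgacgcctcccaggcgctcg
Rps18: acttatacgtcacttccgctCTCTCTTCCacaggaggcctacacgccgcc
Rpl13a: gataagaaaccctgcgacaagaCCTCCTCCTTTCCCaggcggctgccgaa
Rplp2: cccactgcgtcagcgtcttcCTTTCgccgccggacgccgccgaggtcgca
Rps26: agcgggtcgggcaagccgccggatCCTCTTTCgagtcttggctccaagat
Rpl26: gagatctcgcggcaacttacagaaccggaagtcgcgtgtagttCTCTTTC
Rpl22l1: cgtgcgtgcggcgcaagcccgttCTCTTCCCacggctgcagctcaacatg
Rpl22: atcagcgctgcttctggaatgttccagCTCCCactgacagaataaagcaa
Rps19bp1: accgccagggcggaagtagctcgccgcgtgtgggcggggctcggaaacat

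These windows lie at chr4:86857338-86857387 (minus strand) for Rps6, chr17:33955636-33955685 (minus) for Rps18, chr7:45128716-45128765 (minus) for Rpl13a and chr7:141447631-141447680 (plus) for Rplp2. They lie at chr10:128626477-128626526 (minus) for Rps26 and chr11:68901546-68901595 (plus) for Rpl26. The remaining windows are chr3:28805488-28805537 (plus) for Rpl22l1, chr4:152324416-152324465 (plus) for Rpl22 and chr15:80264277-80264326 (minus) for Rps19bp1. In Rps6 and Rps18 the run fills positions 1 to 9 from the annotated start, and in Rpl13a it has 14 bases from position 3. In Rpl26 the run lies farther in, at positions 24 to 30 from the annotated start. Rps19bp1, which encodes no ribosomal protein, had no run of 5 or more in these 30 bases.

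RefSeq promoter windows of 300 bases, 250 before and 50 from the start, were matched by symbol for 65 of the 86 genes. A run of C and at least 6 more C or T, on the transcribed strand in the first 30 bases, was present in 22 of the 65 (33.8%) and in 13.9% of 26960 other genes. The letters CTTTC, which can lie within such a run, were found on that strand in the first 50 bases in 40.0% of members and 6.87% of other genes. The letters CCGGAAG, on either strand anywhere in the window, were present in 40.0% of members and 9.86% of other genes. TATAAA, again on either strand, was present in 10.8% and 15.7%. These matches describe the annotated starts, which need not be the starts used in skin.

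The libraries were checked as skin before the ribosomal protein genes were compared. Krt5, a keratin of basal keratinocytes, lay between 2279 and 3501 FPKM in all 12 libraries. The other keratinocyte markers checked varied more. Krt14 ran from 872 to 5282 FPKM. Krt1 was at 12604 to 16674 FPKM at 6 weeks and was listed at 0 in every 20-week fibrotic library. Krt10 was at 16040 FPKM in 20-week fibrotic replicate 1 and was listed at 0 in replicates 2 and 3 of that group. Composition varied within groups: 22 skeletal muscle genes together took 0.0499% to 1.95% of FPKM in normal skin, 0.0147% to 0.517% at 6 weeks, 0.172% to 0.826% at 20 weeks and 0.0262% to 0.855% in treated skin. Hair shaft genes ranged from 0.0150% to 2.32% and cornified layer genes from 0.684% to 3.39% over the 12 libraries. In bulk tissue, fewer cells of a type and less RNA per cell cannot be told apart. The depth behind the FPKM values is unknown.

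Ribosomal protein messages took between 15.0% and 18.8% of all FPKM once short RNAs were left out. The share was 18.8%, 17.1% and 17.7% in the 3 normal libraries, 15.0%, 16.0% and 16.1% at 6 weeks, 15.3%, 16.6% and 17.0% at 20 weeks, and 16.0%, 18.6% and 17.5% in treated skin. Both fibrotic groups therefore lay below every normal library, and treated skin overlapped with the other 3 groups. The total FPKM differed too, at 476407 to 511328 in normal skin against 618277 to 714087 at 6 weeks, so the lower share stood beside a larger total. With the genes listed at 0 in some libraries left out of the total, an alternative chosen after seeing the data, the mean share was 18.1% ± 0.80 in normal skin and 16.4% ± 0.69 at 6 weeks (SD, n = 3 each).

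The members covered a wide range of levels. Of the 86 genes, 79 had a mean of 50 FPKM or more over the 12 libraries and 47 had 1000 or more. Rps20 was highest with a mean of 2911 FPKM, followed by Rpl39 at 2834 and Rps12 at 2625. Among the 77 standard genes the lowest was Rpl34, at 5.55 to 21.5 FPKM, while the row of its pseudogene Rpl34-ps1 held 1063 to 1391 FPKM. Reads of such near-identical copies can be placed on either row, so the level of Rpl34 is uncertain. Rpl30 (mean 64.8 FPKM), Rps15a (108) and Rpl26 (213) were also low for standard genes, and the row of Rps15a-ps6 held 9.52 to 31.7 FPKM. The median SD of a member on the log2 scale was 0.15 in normal skin, 0.14 and 0.11 in fibrotic skin at 6 and 20 weeks and 0.18 in treated skin. For all tested genes it was 0.15, 0.14, 0.15 and 0.24 in the same order. Single members spread more, such as Rpl36 with 89.2 to 271 FPKM within normal skin.

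At 6 weeks of fibrosis, 19 of the 85 tested members were higher than in normal skin and 0 were lower, by limma on log2(FPKM + 1) with a Benjamini-Hochberg adjusted p under 0.05, and 26 had an unadjusted p under 0.05. Among all 13761 tested genes, 17.6% were higher and 21.7% lower, so the members' share of higher calls (22.4%) was near the background while their share of lower calls was 0. The groups did not overlap in the higher direction for 33 members and in the lower direction for 1, Rps14, against 26.6% and 31.4% of all genes. Most differences were small: the median log2 fold change was 0.19 for the members and -0.05 for all genes, a gap of 0.24. A scaling shifts all genes of a library by nearly the same log2 amount, so it can hardly change this gap. The gap lay between 0.19 and 0.25 under the other scalings. The members' own median became -0.16 when libraries were rescaled without the muscle, hair shaft and cornified lists, which moved the median of all genes to -0.36. Under that rescaling 5 members were higher and 9 lower, beside 9.42% and 43.0% of all genes. Cornified layer genes were higher in 18 of 20 and lower in 2 at 6 weeks, hair shaft genes higher in 15 of 25 and macrophage genes in 3 of 4. The part of tissue composition in the members' values was not tested.

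**Figure D1:**
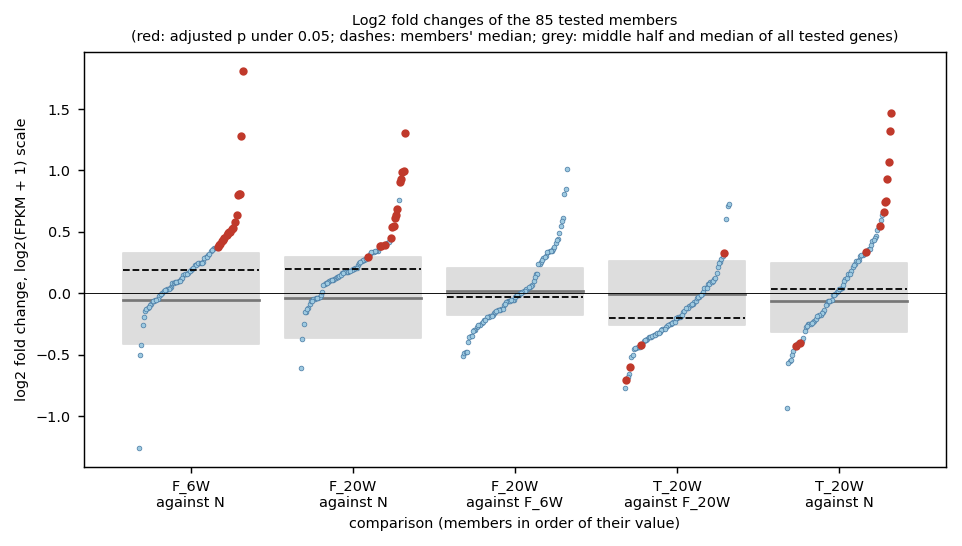
Log2 fold change (log2(FPKM + 1) scale, y axis) of the 85 tested ribosomal protein genes in 5 comparisons, in order of value, with called genes in red, the members' median as dashes, and the median and interquartile range of all 13761 tested genes in grey. The members' median lies at 0.19 and 0.20 for fibrotic against normal skin at 6 and 20 weeks and at -0.20 for treated against 20-week fibrotic skin.

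Whether replicate numbers mark pairs is not settled, and with the number as a block in every group 11 of the 19 remained called. The 8 lost were Rpl10a, Rpl11, Rpl24, Rpl27a, Rpl38, Rps12, Rps13 and Rps20. The count also fell to 10 without normal replicate 1 or normal replicate 2, to 9 without 6-week replicate 2 and to 11 without 6-week replicate 3. Higher calls among all genes were 16.1% with the block and 11.4%, 14.6%, 10.95% and 14.9% without those libraries in the same order. Without normal replicate 3, 1 member, Rps15, was called lower.

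The changes at 6 weeks were led by a few large-subunit genes. Rpl26, whose protein sits near the exit of the peptide tunnel, stood at 70.6, 97.5 and 131 FPKM in the normal libraries and at 314, 445 and 285 at 6 weeks. All 3 fibrotic libraries were above the highest normal one, and the log2 fold change was 1.81 ± 0.32 (SE, limma adjusted p = 0.00219). Rpl34, a protein at the surface of the large subunit, stood at 5.55, 7.06 and 6.36 FPKM in normal skin and at 13.8, 21.5 and 15.8 at 6 weeks. Its log2 fold change was 1.28 ± 0.19 (SE, limma adjusted p = 0.00107), with the limit on its level given above. The far higher row of Rpl34-ps1 was at 1262, 1106 and 1063 FPKM in normal skin and 1266, 1321 and 1345 at 6 weeks. It was at 1305, 1382 and 1391 FPKM at 20 weeks and 1298, 1353 and 1124 in treated skin. A change in Rpl34 could therefore reflect how reads were placed between the rows, which was not tested.

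Rpl30, another large-subunit protein, stood at 40.7, 36.0 and 56.5 FPKM in normal skin and at 70.4, 88.5 and 73.2 at 6 weeks, without overlap. That is a log2 fold change of 0.80 ± 0.18 (SE, limma adjusted p = 0.00686). Rpl26, Rpl34, Rpl30, Rpl22l1 and Rpl36al remained higher at 6 weeks under each of the 21 alternative settings, the range for Rpl26 being 1.46 to 2.03. By mean FPKM, Rpl26, Rpl34 and Rpl30 ranked 73, 77 and 76 among the 77 standard genes. The part of near-identical copies in their values was not tested.

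Other members rose by less. Rpl41, the shortest ribosomal protein, rose by 0.64 on the log2 scale, its FPKM being 1393 ± 245 in normal skin and 2157 ± 209 at 6 weeks (SD, n = 3 each). Rpl27 rose by 0.58, and the 4 small-subunit genes called, Rps2, Rps12, Rps13 and Rps20, by 0.50 to 0.53. Members called higher numbered 4 of 31 (12.9%) in the small subunit and 11 of 43 (25.6%) in the large subunit, beside 17.6% of all tested genes. The difference between the subunits was not tested. Rps15 (log2 fold change -0.42, limma adjusted p = 0.162) lay lowest among the standard genes and was not called.

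At 20 weeks of fibrosis, 15 of 85 members were higher than in normal skin and 0 lower in limma, and 30 had an unadjusted p under 0.05. The background was 15.3% higher and 18.2% lower among all tested genes. Groups did not overlap for 27 members in the higher direction and 0 in the lower, against 25.1% and 29.5% of all genes. The median log2 fold change was 0.20 for the members and -0.04 for all genes, a gap of 0.23. It lay between 0.19 and 0.26 under the other scalings, which can hardly change it, and after removal of a GC trend. The members' own median turned to -0.13 when rescaled without the muscle, hair shaft and cornified lists (4 higher and 10 lower, all genes at -0.32), and to -0.07 when scaled to the median member (4 higher and 1 lower, all genes at -0.30). Of all genes, 7.96% were higher and 38.9% lower under the first of these scalings, and 6.09% and 32.9% under the other. Cornified layer genes were higher in 16 of 20 and lower in 2 at 20 weeks (median log2 fold change 2.38), at 2.16% to 2.76% of FPKM against 0.967% to 1.43% in normal skin. Macrophage genes were higher in 2 of 4, hair shaft genes in 1 of 25, and dermal fibroblast genes were higher in 2 of 4 and lower in 2. Their part in the members' values was not tested. Both fibrotic comparisons share the 3 normal libraries. The count fell to 4 without normal replicate 2 or 20-week replicate 2, and to 5 without normal replicate 3 or 20-week replicate 3, and 1 member, Rpl39l, was called lower without 20-week replicate 2 or treated replicate 1. In those 4 fits with 4 or 5 higher members, higher calls among all genes were 10.3% to 11.8%.

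Rpl26 was at 316, 261 and 167 FPKM at 20 weeks, above all normal libraries, with a log2 fold change of 1.30 ± 0.32 (SE, limma adjusted p = 0.012). Rpl34 was at 16.1, 14.4 and 10.4 FPKM (log2 fold change 0.98). Rpl30 was at 89.2, 94.8 and 66.4 FPKM (0.90). These genes lay above normal skin at both times, and none of them was called between the times.

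Rpl41 reached 2383, 2813 and 2694 FPKM at 20 weeks, against 1632, 1404 and 1142 in normal skin. Its log2 fold change of 0.93 ± 0.16 (SE, limma adjusted p = 0.00283) had the smallest p among the members at this time. Rpl26, Rpl34, Rpl30 and Rpl41 remained called at 20 weeks under each of the 21 alternative settings. Rplp1 and Rps26 were called while their groups overlapped, as was Rpl15.

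**Figure D2:**
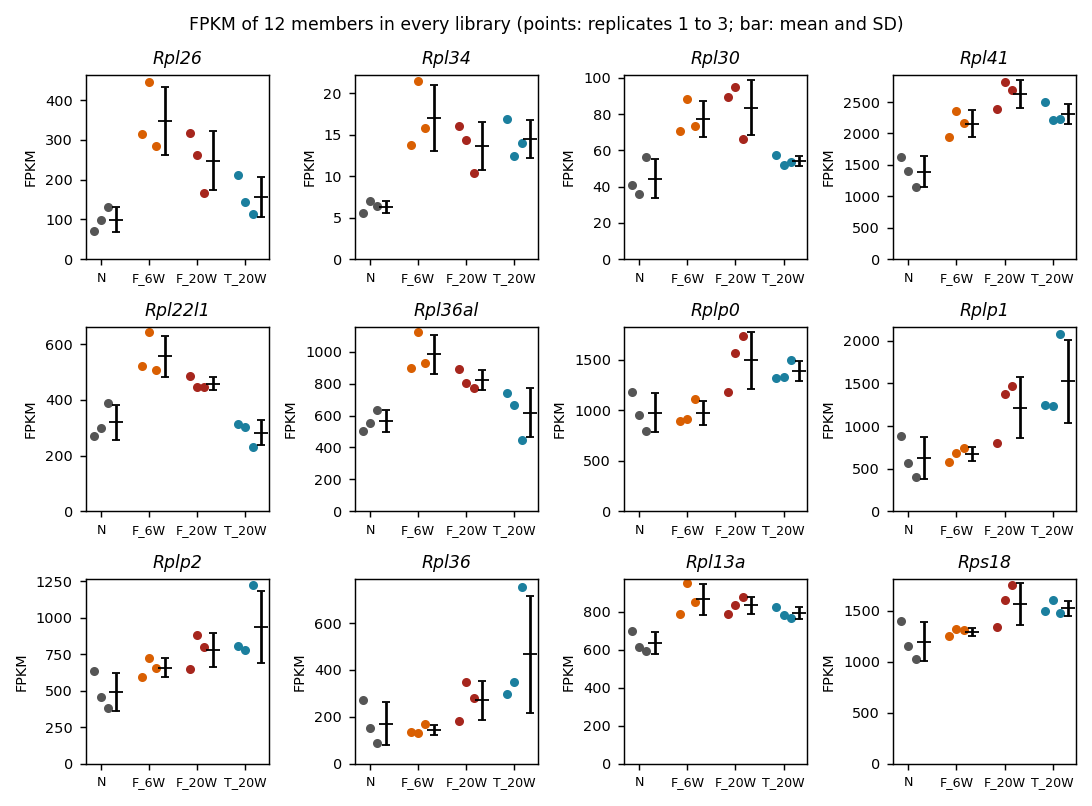
FPKM (y axis, from 0) of 12 ribosomal protein genes in each library of the 4 groups (x axis), with the mean and SD of each group beside the points. Rpl26, Rpl34 and Rpl30 lie above all normal libraries in both fibrotic groups, while Rplp0, Rplp1, Rplp2 and Rpl36 reach their highest group means in 20-week fibrotic or treated skin.

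The stalk proteins Rplp0, Rplp1 and Rplp2 form the flexible arm of the large subunit that recruits elongation factors. Rplp0 stood at 1180, 957 and 795 FPKM in normal skin, 892, 913 and 1108 at 6 weeks, 1183, 1565 and 1734 at 20 weeks and 1323, 1332 and 1501 in treated skin. It was not called between normal and 6-week skin (log2 fold change 0.00, 95% interval -0.42 to 0.42) and was higher at 20 weeks than in normal skin by 0.61 ± 0.19 (SE, limma adjusted p = 0.0311). The lowest 20-week library lay just above the highest normal one.

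Rplp1 stood at 887, 571 and 404 FPKM in normal skin, 582, 684 and 748 at 6 weeks, 803, 1372 and 1466 at 20 weeks and 1250, 1238 and 2078 in treated skin. It was higher in treated than in normal skin by 1.32 ± 0.33 (SE, limma adjusted p = 0.0213), without overlap. Rplp2 stood at 634, 454 and 385 FPKM in normal skin, 592, 723 and 659 at 6 weeks, 651, 885 and 801 at 20 weeks and 806, 781 and 1224 in treated skin. Treated and normal skin did not overlap, with a log2 fold change of 0.93 ± 0.23 (SE, limma adjusted p = 0.0198). All 3 stalk genes were called higher in 20-week fibrotic skin, Rplp1 and Rplp2 also in treated skin. None of the 3 was called between treated and 20-week fibrotic skin, with 95% intervals of -0.51 to 0.32 for Rplp0, -0.40 to 1.06 for Rplp1 and -0.26 to 0.75 for Rplp2. In 20-week against normal skin the calls of the 3 were lost under 9, 12 and 11 of the 21 alternative settings.

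Between 6 and 20 weeks of fibrosis 0 members were called in limma in either direction, while 14 had an unadjusted p under 0.05. The background was as sparse, with 0.00727% of all genes higher and 0.0291% lower, and 2737 genes at an unadjusted p under 0.05. Groups did not overlap for 17 members in each direction, against 17.9% of all genes in the higher and 13.0% in the lower direction. The smallest p belonged to Rps19bp1, Rps27l and Rplp0. Rps19bp1 was at 20.0, 20.4 and 17.4 FPKM at 6 weeks and 12.8, 14.6 and 13.0 at 20 weeks, a log2 fold change of -0.49 ± 0.09 (SE, limma adjusted p = 0.0769). Rps27l, a p53-responsive paralogue of Rps27, was at 331, 377 and 357 FPKM at 6 weeks and 273, 244 and 248 at 20 weeks (-0.47, limma adjusted p = 0.121). Rplp0 differed by 0.61 (limma adjusted p = 0.138). Rps19bp1 was called with a filter at a mean of 5 FPKM, after removal of a GC trend, without 6-week replicate 3 and without treated replicate 1.

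In treated against 20-week fibrotic skin 1 member was higher and 3 were lower. The background was 4.45% higher and 10.9% lower among all tested genes, and the members' shares were 1.18% and 3.53%; the difference from the background was not tested. Without overlap of the groups, 40 of the 85 were lower and 4 higher, against 19.2% and 13.0% of all genes. The median log2 fold change was -0.20 for the members and -0.00 for all genes, a gap of -0.19. It lay between -0.15 and -0.19 under the other scalings, which can hardly change it, and after removal of a GC trend. The members' own median was 0.10 when rescaled without the muscle, hair shaft and cornified lists, which moved the median of all genes to 0.24; 2 members were then higher and 1 lower, beside 16.4% and 5.11% of all genes. Cornified layer genes were lower in 12 of 20 (median log2 fold change -1.71), at 0.684% to 1.66% of FPKM in treated against 2.16% to 2.76% in 20-week fibrotic skin. Hair shaft genes were higher in 4 of 25 (median 3.09) and adipocyte genes in 1 of 4 (median 1.90). The part of these cells in the members' values was not tested.

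The called genes were Rpl22l1, Rpl30 and Rps15a, lower, and Rps19bp1, higher. Rpl30 stood at 57.3, 51.7 and 53.4 FPKM in treated skin, below all 20-week fibrotic libraries, with a log2 fold change of -0.60 ± 0.18 (SE, limma adjusted p = 0.0479). Rps15a, a small-subunit protein, stood at 96.1, 95.9 and 72.3 FPKM against 121, 110 and 121 (log2 fold change -0.42, limma adjusted p = 0.0453), with reads that its pseudogenes may share. Rps19bp1 stood at 16.0, 17.5 and 17.9 FPKM, above the 20-week fibrotic libraries by 0.33 (limma adjusted p = 0.0367).

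None of these 4 calls passed without 20-week replicate 1, 20-week replicate 2, 20-week replicate 3, treated replicate 2 or treated replicate 3, or in a fit of the 6 libraries compared alone. Calls among all genes fell there too, to between 0.00727% and 1.44% higher and between 0.00727% and 5.60% lower. Without treated replicate 1 the count was 3 higher and 9 lower, beside 17.7% and 20.2% of all genes. Normal and 6-week libraries enter only through the shared spread: 1 member was called without normal replicate 1 or 6-week replicate 1, and 2 without normal replicate 2, 6-week replicate 2 or 6-week replicate 3. Rpl22l1 remained called under 14 of 21 settings with a log2 fold change between -0.79 and -0.42. After removal of a GC trend, the calls of Rpl30, Rps15a and Rps19bp1 were lost and that of Rpl22l1 remained. Of all genes, 4.13% were then higher and 9.85% lower.

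Treated against normal skin gave 9 members higher and 2 lower, beside 7.57% and 13.2% of all tested genes. Groups did not overlap for 22 members in the higher direction and 16 in the lower, against 14.0% and 23.5% of all genes. The median log2 fold change was 0.03 for the members and -0.06 for all genes. The members' median had no steady sign: it was -0.13 when scaled to the median member (all genes at -0.23), -0.00 under the rescaling without those 3 lists (all genes at -0.10), -0.02 without normal replicate 2 or treated replicate 2 and -0.00 without treated replicate 1. The members' split was 5 higher and 10 lower under the rescaling without those 3 lists, beside 6.05% and 13.9% of all genes, and 7 higher and 6 lower when scaled to the median member, beside 3.07% and 17.3%. Hair shaft genes were higher in 14 of 25 in this comparison (median log2 fold change 3.73), and cornified layer genes were higher in 5 of 20 and lower in 2. The part of these cells in the members' values was not tested. Higher members were Rpl36, Rplp1, Rpl34, Rplp2, Rps26, Rpl41, Rpl18, Rpl8 and Rps19bp1, and lower members were Rpl5 and Rpl22. The count of higher members was 2 without normal replicate 2, 1 without normal replicate 3, 5 without treated replicate 2 or 3, and 1 in a fit of the 6 libraries compared alone. Higher calls among all genes were 4.98%, 2.08%, 7.05% and 6.79% without those libraries in the same order, and 0.240% in the fit of 6 libraries, which called 0.763% lower. No member was called lower without normal replicate 1, 2 or 3 or without treated replicate 3, and 1 was called lower when any single 6-week or 20-week fibrotic library was left out.

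Rpl36 stood at 271, 150 and 89.2 FPKM in normal skin and 299, 348 and 755 in treated skin, a log2 fold change of 1.47 ± 0.43 (SE, limma adjusted p = 0.0387). Treated replicate 3 alone held the value of 755, and the call was lost under 12 of 21 settings. Rpl34 was higher by 1.07 (limma adjusted p = 0.00682), and it alone of the 11 was called under all 21 settings. None of these settings changes how reads are placed between Rpl34 and Rpl34-ps1, and the far higher row of Rpl34-ps1 overlapped between treated and normal skin.

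Rpl5 stood at 657, 641 and 766 FPKM in normal skin and 544, 552 and 438 in treated skin, a log2 fold change of -0.43 ± 0.13 (SE, limma adjusted p = 0.0437), lost under 16 of 21 settings. Its partner in the 5S particle, Rpl11, was at 1211 ± 43 FPKM in normal and 1320 ± 147 in treated skin (SD, n = 3 each) and was not called there. At 6 weeks Rpl11 had been called higher than normal by 0.38 (limma adjusted p = 0.0445), a call lost under 14 of 21 settings, while Rpl5 was at 0.03. Rpl22, which binds RNA at the surface of the large subunit, stood at 211, 201 and 237 FPKM in normal skin and 174, 176 and 141 in treated skin, a log2 fold change of -0.40 (limma adjusted p = 0.0332).

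Differences between treated and normal skin went with base composition. The transcript GC content of 84 tested members, from GENCODE transcripts of the same assembly, ran from 40.6% to 60.8%. In treated against normal skin the log2 fold change of a member correlated with its GC content across the 84 genes (Pearson r = 0.55), and it did so in treated against 20-week fibrotic skin (0.48) and in 20-week against 6-week fibrotic skin (0.53). The value was 0.34 for 20-week fibrotic and -0.18 for 6-week fibrotic against normal skin. Over 12860 other tested genes the same values were 0.27, 0.24, 0.06, 0.03 and -0.00. These are descriptions across genes that share libraries and base composition, and genes are not independent replicates.

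**Figure D3:**
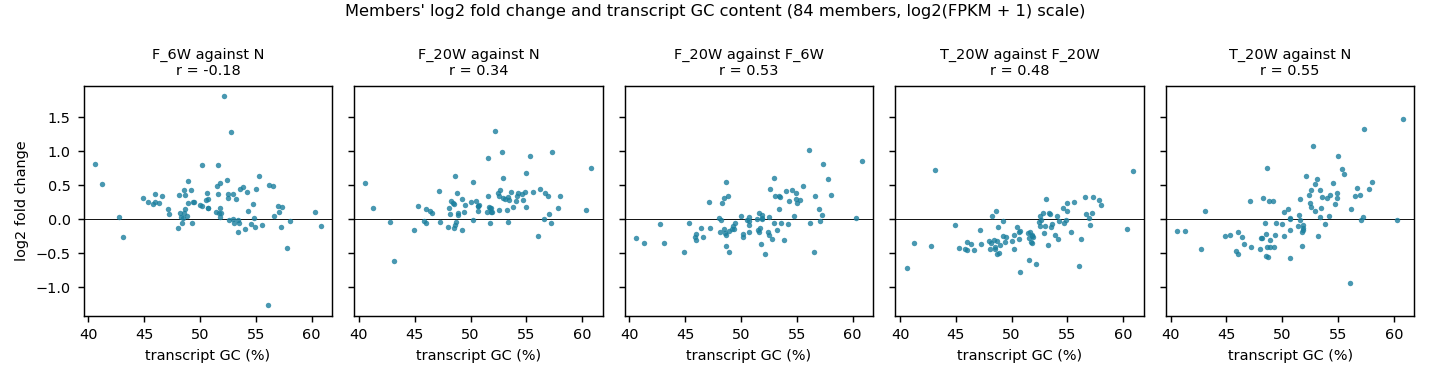
Log2 fold change (y axis, log2(FPKM + 1) scale) of 84 ribosomal protein genes against the GC content of their transcripts in percent (x axis) in the 5 comparisons, 1 point a gene, with Pearson r above each panel. The points climb from left to right with r of 0.53, 0.48 and 0.55 in the last 3 panels.

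The pattern varied from library to library. With each member set against its mean over 12 libraries, r with GC was 0.20, -0.30 and -0.40 in the normal libraries, -0.51, -0.42 and -0.38 at 6 weeks, -0.26, 0.47 and 0.34 at 20 weeks and 0.20, 0.50 and 0.62 in treated skin. Normal replicate 1 and 20-week replicate 1 thus stood apart in sign from the other libraries of their groups. The 28 members of highest GC (53.3% or more) had a median log2 fold change of 0.33 in treated against normal skin, and the 28 of lowest GC (49.2% or less) had -0.26. Single members of these sets ran from -0.93 to 1.47 and from -0.55 to 0.76. The GC-rich members included Rpl36 (60.8%), Rpl8, Rplp1, Rpl18 and Rplp2, all called higher in treated skin. They also included Rps10 (60.3%) and Rpl13 (57.1%), which were not called. Their means were 979 and 1173 FPKM in normal skin and 970 and 1166 in treated skin. The GC-poor members included Rpl5 (42.7%) and Rpl22 (49.2%), called lower there, but also Rps26 (48.6%), called higher.

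When a GC trend fitted on other genes was removed from each library, an alternative chosen after seeing the data, treated against normal skin gave 8 members higher and 0 lower. Calls among all tested genes fell as well, from 7.57% to 5.49% higher and from 13.2% to 7.35% lower. Of the 11 calls 6 remained, and Rpl5, Rpl22, Rpl18, Rpl8 and Rps19bp1 were lost. Rpl18 went from 0.66 to 0.55 on the log2 scale (limma adjusted p = 0.0577), Rpl8 from 0.55 to 0.31 and Rps19bp1 from 0.335 to 0.162, while Rpl5 went from -0.431 to -0.215 and Rpl22 from -0.40 to -0.27. The same step gave 27 members higher than in normal skin at 6 weeks, and 24 at 20 weeks, where higher calls among all genes were 21.5% and 19.0%. For Rpl36, Rplp1 and Rplp2 the log2 fold changes in treated skin were then 1.14, 1.11 and 0.85. The part that base composition or its handling in library preparation had in these differences was not tested.

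**Figure D4:**
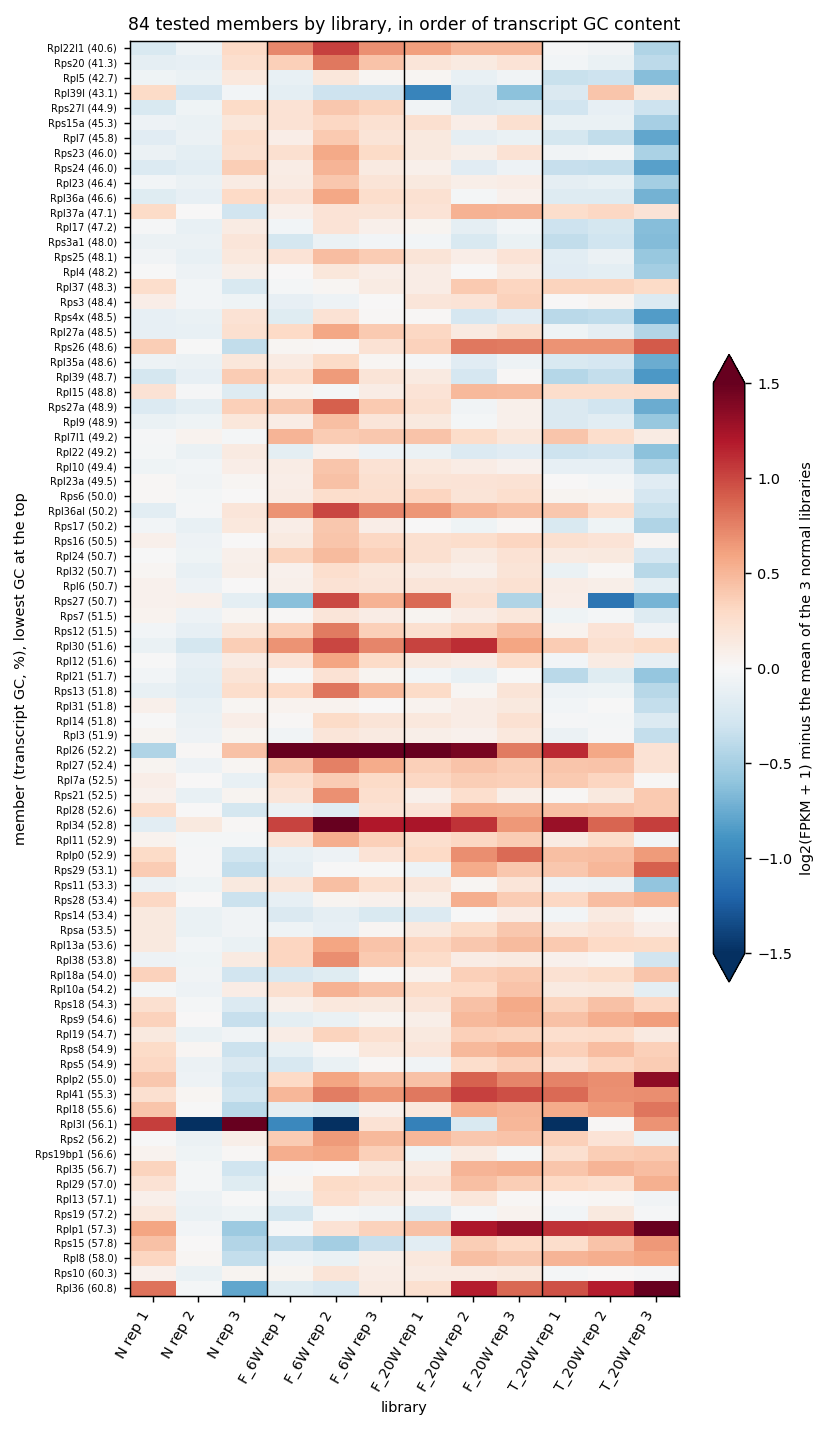
Heatmap of 84 tested ribosomal protein genes (in order of transcript GC content, lowest at the top) across the 12 libraries, coloured by log2(FPKM + 1) minus the mean of the 3 normal libraries. Treated replicate 3 is mostly blue among the GC-poor genes at the top and mostly red among the GC-rich genes at the bottom, and Rpl26 and Rpl34 are deep red at 6 weeks.

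Among the common reference genes, Rpl13a was at 699, 612 and 591 FPKM in normal skin, 789, 954 and 852 at 6 weeks, 788, 834 and 876 at 20 weeks and 827, 780 and 769 in treated skin. It was called higher at 6 weeks (0.45, limma adjusted p = 0.0134) and at 20 weeks (0.40, 0.0258). Rps18 was at 1403, 1159 and 1027 FPKM in normal skin, 1248, 1319 and 1313 at 6 weeks, 1343, 1605 and 1753 at 20 weeks and 1495, 1611 and 1475 in treated skin, and it was not called in any of the 5 comparisons. At 20 weeks its log2 fold change was 0.39 (limma adjusted p = 0.0656), and it was called higher there under 5 of the 21 alternative settings, with log2 fold changes of 0.39 to 0.51. The call of Rpl13a was lost under 3 of 21 settings at 6 weeks and 8 at 20 weeks.

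Rps6, the substrate of S6 kinase, was at 710 ± 12 FPKM in normal skin, 820 ± 49 at 6 weeks, 849 ± 38 at 20 weeks and 682 ± 77 in treated skin (SD, n = 3 each). It was not called in any comparison, with a log2 fold change of -0.32 (limma adjusted p = 0.0803) in treated against 20-week fibrotic skin. Rpsa, which is also known as the laminin receptor precursor, was at 607 ± 58, 584 ± 33, 737 ± 63 and 677 ± 26 FPKM in the same order and was not called either. Rps27 ranged widely, from 1007 FPKM in treated replicate 2 to 4271 in 6-week replicate 2, and was not called.

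Paralogues were set beside their parent genes. Rpl22l1, which can replace Rpl22 in the ribosome, stood at 270, 300 and 389 FPKM in normal skin, 523, 642 and 508 at 6 weeks, 485, 445 and 446 at 20 weeks and 313, 303 and 231 in treated skin. It was higher at 6 weeks by 0.81 ± 0.17 (SE, limma adjusted p = 0.00485) and at 20 weeks by 0.54 (0.0331), and lower in treated than in 20-week fibrotic skin by -0.71 ± 0.17 (SE, limma adjusted p = 0.024). The 6-week call held under all 21 settings, and the 20-week call was lost under 8 of them. Its difference between treated and normal skin was -0.17, with a 95% interval of -0.55 to 0.20. Rpl22 itself was at -0.05 and -0.15 in fibrotic against normal skin and was not called.

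The FPKM ratio of Rpl22l1 to Rpl22, both values being per length, was 1.28, 1.49 and 1.64 in normal skin, 2.69, 2.85 and 2.49 at 6 weeks, 2.39, 2.38 and 2.33 at 20 weeks and 1.80, 1.72 and 1.64 in treated skin. The fibrotic groups lay above all normal libraries, and treated skin lay below all fibrotic ones while overlapping with normal skin. Scaling of a library cancels in this ratio. An exact permutation test of 3 libraries against 3 cannot give a p below 0.10, so these ratios are a description. Rpl22l1 has the lowest transcript GC content of the members (40.6%) and Rpl22 has 49.2%. After removal of the GC trend Rpl22l1 differed between treated and 20-week fibrotic skin by -0.54 (limma adjusted p = 0.0301).

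Rpl36al, a copy of Rpl36a, stood at 501, 554 and 636 FPKM in normal skin and 897, 1122 and 932 at 6 weeks, a log2 fold change of 0.80 ± 0.19 (SE, limma adjusted p = 0.00905). Its ratio to Rpl36a was 0.434 ± 0.034 in normal skin, 0.594 ± 0.011 at 6 weeks, 0.594 ± 0.033 at 20 weeks and 0.601 ± 0.048 in treated skin (SD, n = 3 each). Every fibrotic and treated library lay above the 3 normal ones. Rpl7l1, a nucleolar relative of Rpl7, was at 25.5 ± 0.87 FPKM in normal skin and 34.7 ± 1.7 at 6 weeks (SD, n = 3 each; log2 fold change 0.43, limma adjusted p = 0.0071).

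**Figure D5:**
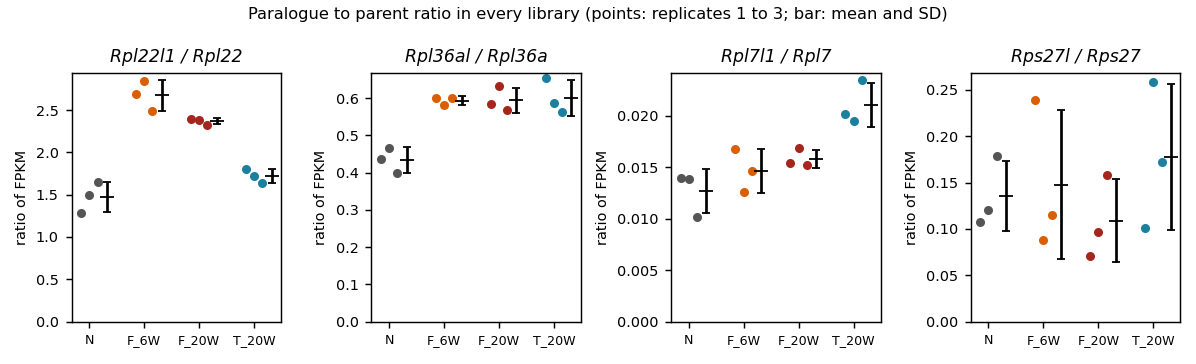
Ratio of the FPKM of 4 paralogues to that of their parent genes (y axis, from 0) in each library of the 4 groups (x axis), with the mean and SD beside the points. The ratio of Rpl22l1 to Rpl22 is 1.28 to 1.64 in normal and 2.33 to 2.85 in fibrotic skin, and the ratio of Rpl36al to Rpl36a is 0.434 ± 0.034 in normal skin and 0.594 to 0.601 on average elsewhere.

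The remaining paralogues were weakly expressed or varied within groups. Rpl3l, which replaces Rpl3 in striated muscle, was at 29.3, 1.07 and 50.8 FPKM in normal skin, 6.57, 0.812 and 16.2 at 6 weeks, 6.34, 11.7 and 19.9 at 20 weeks and 0.325, 14.0 and 22.6 in treated skin. Muscle genes took 1.29%, 0.0499% and 1.95% of FPKM in the same 3 normal libraries, and Rpl3l was lowest in treated replicate 1, where they took 0.0262%. Rpl3l was not called in any comparison, and its parent Rpl3 was at 1051 ± 50 FPKM in normal and 949 ± 116 in treated skin (SD, n = 3 each). The part of muscle in its values was not tested.

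Rpl39l, a copy of Rpl39 best known from testis, lay between 1.38 and 5.31 FPKM, and Rps4y2, a copy of Rps4x, between 1.35 and 16.0 FPKM. Rps4y2 is listed by RefSeq as an older symbol of Rps4l, a transcribed pseudogene, so whether it belongs among the paralogues is uncertain. Neither Rpl39l nor Rps4y2 was called in any comparison, although Rpl39l in treated against 20-week fibrotic skin had a log2 fold change of 0.73 (limma adjusted p = 0.0507) and was called under 3 other scalings. Rps27l stood at 242, 272 and 348 FPKM in normal skin. Its ratio to Rps27 overlapped between all groups, at 0.0709 to 0.258 over the 12 libraries.

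Other genes of the ribosome, its assembly and translation were counted by list. Fau and Gnb2l1, which encode ribosome components under other names, did not pass the test in the 5 comparisons; the smallest limma adjusted p-values were 0.0668 for Fau (treated against normal skin, log2 fold change 0.41) and 0.0896 for Gnb2l1 (20 weeks against normal skin, log2 fold change 0.25). Of 57 tested genes for rRNA processing and ribosome assembly, 40 were higher at 6 weeks than in normal skin and 0 lower (median log2 fold change 0.50). At 20 weeks 21 were higher and 1 lower. Nop56, a core protein of box C/D particles, went from 31.1 ± 3.0 to 76.4 ± 9.6 FPKM at 6 weeks (SD, n = 3 each; log2 fold change 1.26, limma adjusted p = 0.00043). Gnl3, which encodes nucleostemin, rose by 1.21. In treated against 20-week fibrotic skin 1 gene of this list was higher and 2 lower.

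Of 37 initiation factor genes, 28 were higher and 0 lower at 6 weeks, and 24 higher and 2 lower at 20 weeks. Eif5a, which helps the ribosome through difficult peptide bonds, went from 417 ± 22 to 797 ± 25 FPKM at 6 weeks (SD, n = 3 each; log2 fold change 0.93). In treated against 20-week fibrotic skin 4 were lower and 0 higher, among them Eif4e, the cap-binding protein, with a log2 fold change of -0.75 (limma adjusted p = 0.0308). Of 16 genes for elongation factors and other TOP messages, 6 were higher at 6 weeks and 5 at 20 weeks, and 3 were lower in treated than in 20-week fibrotic skin. Eef1g, a subunit of elongation factor 1, was at 450 ± 33 FPKM in normal skin, 754 ± 10 at 20 weeks and 520 ± 112 in treated skin (SD, n = 3 each).

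RNA polymerase I genes were higher in 7 of 16 and lower in 0 at 6 weeks, and higher in 5 and lower in 2 at 20 weeks. Of 9 noncoding hosts of small nucleolar RNAs, whose spliced products also begin with a pyrimidine run, 8 were higher at 6 weeks and 3 at 20 weeks, led by Snhg3 at 1.61 and 0.87. Mitochondrial ribosomal protein genes, which serve the separate ribosomes of mitochondria, were higher in 32 of 76 and lower in 0 at 6 weeks. They were higher in 18 and lower in 2 at 20 weeks, with Mrpl15 higher by 0.91 and 0.81.

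Genes for translation and secretion at the endoplasmic reticulum were higher in 9 of 24 at 6 weeks and in 3 at 20 weeks, with Sec61b, a subunit of the translocation channel, higher by 1.03 at 6 weeks. The 26 regulators around mTORC1, S6 kinase and MYC split, with 6 higher and 5 lower at 6 weeks and 6 higher and 2 lower at 20 weeks. Mxd1, an antagonist of MYC, rose by 1.34 at 6 weeks and its relative Mxd4 fell by 1.13 there. Mycn was at 1.61 ± 0.27 FPKM in 20-week fibrotic and 5.54 ± 0.39 in treated skin (SD, n = 3 each; log2 fold change 1.33, limma adjusted p = 0.0213). These list counts stand beside the background of 17.6% higher and 21.7% lower at 6 weeks and 15.3% and 18.2% at 20 weeks, and of 4.45% higher and 10.9% lower in treated against 20-week fibrotic skin, and the lists were not tested as sets.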

How the data were processed

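RNA of macrodissected skin was made into stranded libraries of polyadenylated RNA and sequenced in pairs, per the labels' protocols. The submitters' processing notes name TopHat2 2.0.13, Bowtie2 2.2.3, Cufflinks 2.2.1, cutadapt 1.7.1, FastQC 0.11.2, SAMtools 1.0 and R 3.1.1, with assembly mm10. The authors deposited FPKM values for 23359 genes in 12 libraries. Depth cannot be read from them, so no counting error is given. Values were analysed as log2(FPKM + 1) in limma 3.58.1 under R 4.3.3, with 1 mean per group, a trend in the variance and all 12 libraries in a single fit. Genes with 1 FPKM or more in at least 3 libraries were tested (13761, with 85 members), and the Benjamini-Hochberg adjustment ran over all of them, separately for 5 comparisons, with calls at an adjusted p under 0.05. Tests are 2-sided. The fit assumes that all groups spread alike. Fold changes on this scale understate changes of low genes. The code was tested on simulated data.

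Members and gene lists were chosen with earlier results of these data known. Named by rule were, per comparison, the 4 highest and 4 lowest called members whose groups did not overlap (with fewer than 4 calls, the 3 smallest p), fixed reference, stalk, 5S and paralogue genes with their parents, and up to 2 called genes with the largest change per list. Other genes were chosen after their values were seen. The 22 genes listed at 0 in some libraries and at 10 FPKM or more in the others were left out of list counts. No member was among them. Some genes of the lists are not reported here.

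Replicate numbers were checked for pairing, which the labels do not give. Deviations from the group means of same-numbered libraries correlated at 0.108 to 0.227 for normal and 6-week skin, above 0.1 in every pair. Normal replicate 1 correlated more with 6-week replicate 3 (0.191) than with 6-week replicate 1 (0.159), so these values do not settle the pairing. Over same-numbered libraries of the other group pairs the range was -0.35 to 0.291. Normal replicate 1 and treated replicate 2, which differ in number, correlated at 0.418. Transcript GC content came from GENCODE, release M21, for 94.3% of tested genes. Python 3.11.15 and matplotlib 3.10.9 made tables and figures. The alternatives were a pseudocount of 0.1, no filter, a filter at a mean of 5 FPKM, other scalings, the 6 libraries compared alone, a replicate block, removal of the GC trend (lowess span 0.3) and leaving out each library.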

Additional observations from a re-analysis of the deposited data

Results flagged for a closer look

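A set of 7 members is singled out here because their difference from normal skin was not alike in 2 of the other groups. Between treated and 20-week fibrotic skin, which share the normal controls, the test of the difference itself passed for Rpl22l1 (log2 difference -0.71, limma adjusted p = 0.024), Rpl30 (-0.60, 0.0479), Rps15a (-0.424, 0.0453) and Rps19bp1 (0.328, 0.0367). The normal libraries cancel from this difference, so these are the same 4 calls as in treated against 20-week fibrotic skin. They held under 14, 5, 5 and 9 of the 21 alternative settings in the same order. None held in a fit of the 6 libraries compared alone.

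Rpl10, Rpl23 and Rps27a lay above every normal library in all 3 libraries at 6 weeks and below every normal library in all 3 treated libraries. Of all tested genes, 26.6% lay above normal skin without overlap at 6 weeks and 23.5% lay below it in treated skin. The share that did both is not given here. Rpl23 was separate at 6 weeks by a narrow margin, with 976.5 FPKM in 6-week replicate 1 and 976.0 in normal replicate 3. Their log2 fold changes were 0.25, 0.24 and 0.57 at 6 weeks and -0.225, -0.254 and -0.414 in treated skin, and 0 of these 6 values passed the limma threshold. The difference between those 2 effects was not tested. The transcripts of Rpl10, Rpl23 and Rps27a had a GC content of 49.4%, 46.4% and 48.9%, beside a median of 51.7% for the 84 members. Across members, r with GC was -0.51 to -0.38 in the 6-week libraries and 0.20 to 0.62 in the treated ones. The part of base composition in the values of these genes was not tested.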

How the results depend on the processing

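Counts of called members, higher and lower, moved with several choices, and the cause was not tested beyond what each choice does by construction. With no filter on low values, 9 members were higher in F_6W against N, 8 in F_20W against N, and 4 higher and 1 lower in T_20W against N, while 1 was lower in T_20W against F_20W. Shares of all genes there were 12.7%, 10.1%, 4.33%, 8.64% and 6.02% in the same order. With a mean of 5 FPKM or more, 1 was lower in F_20W against F_6W and 5 in T_20W against N, beside 0.0928% and 15.7% of all genes. Median-of-ratios scaling put 23 higher in F_20W against N, 2 higher in T_20W against F_20W and 1 lower in T_20W against N. The shares of all genes were 17.5%, 4.83% and 9.82% in the same order. Rescaling without the muscle, hair shaft and cornified lists gave 5 higher and 9 lower in F_6W against N, 4 and 10 in F_20W against N, 2 and 1 in T_20W against F_20W, and 5 and 10 in T_20W against N. It also turned the members' median log2 fold change from 0.19 to -0.16 in F_6W against N and from 0.20 to -0.13 in F_20W against N. Many members thus changed sign, among them Rpl5 in F_6W against N (-0.324) and Rpl7l1 in F_20W against N (-0.0254). Scaling to the median member gave 8 higher in F_6W against N, 4 higher and 1 lower in F_20W against N, 0 lower in T_20W against F_20W and 6 lower in T_20W against N. With the replicate block, 11 were higher in F_6W against N, 6 in F_20W against N, 0 higher and 1 lower in T_20W against F_20W, and 5 higher and 0 lower in T_20W against N. Removal of the GC trend, chosen after seeing the data, gave 24 higher in F_20W against N, 1 lower in F_20W against F_6W, 1 lower in T_20W against F_20W and 0 lower in T_20W against N. A fit of the 6 libraries compared gave 0 and 0 in T_20W against F_20W and 1 and 0 in T_20W against N. A pseudocount of 0.1 gave the same counts. Calls among all genes moved too. Over these settings 9.42% to 21.5% were higher and 16.0% to 43.0% lower in F_6W against N. In F_20W against N the shares were 6.09% to 19.0% and 13.4% to 38.9%. In F_20W against F_6W they were 0.00498% to 2.09% and 0.0199% to 1.39%. They were 0.00727% to 16.4% and 0.0145% to 16.2% in T_20W against F_20W, and 0.240% to 9.18% and 0.763% to 17.3% in T_20W against N.

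Leaving out each library in turn gave 9 to 22 higher and 0 to 1 lower in F_6W against N, 4 to 19 and 0 to 1 in F_20W against N, 0 to 0 and 0 to 1 in F_20W against F_6W, 0 to 3 and 0 to 9 in T_20W against F_20W, and 1 to 13 and 0 to 2 in T_20W against N. Shares of all genes moved as well. They were 10.95% to 21.4% higher and 14.5% to 26.2% lower in F_6W against N. In F_20W against N they were 10.1% to 19.5% and 11.9% to 22.7%, and in F_20W against F_6W 0.00727% to 3.01% and 0.0218% to 0.988%. In T_20W against F_20W they were 0.0145% to 17.7% and 0.00727% to 20.2%, and in T_20W against N 2.08% to 8.55% and 4.49% to 14.0%. The mean share of FPKM then lay at 17.4% to 18.2% in normal skin, 15.5% to 16.1% at 6 weeks, 15.9% to 16.8% at 20 weeks and 16.8% to 18.1% in treated skin. At 6 weeks it was 16.4% without the genes listed at 0 and 17.0% without the 3 lists as well, both chosen after seeing the data. FPKM values carry no depth, so counting error could not be judged.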
